A study of Mus musculus with 908 samples.

Results

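Single keratinocytes of mouse skin squamous cell carcinoma that were sorted as integrin α6+ and CD44-negative were divided by their level of Krt10. Krt10 is the type I keratin that epidermal cells switch on when they leave the basal layer. The 40 Krt10-high cells had at least 10 TPM of Krt10 (a length-corrected share of a library's transcripts) and the 26 Krt10-absent cells had less than 1 TPM. Another 25 cells lay between these limits and were left out, so both groups together held 66 of the 91 cells of the gate with at least 2000 genes at 1 TPM or more. They came from 96 wells of 1 plate, and the series as a whole had 908 libraries, of which 696 reached that number of genes. The groups were made from a measured transcript, so the differences below describe these cells and carry no test, and every gene measured in them counts as part of the choice.

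All 66 cells came from tumours of the strain TRE-HrasG12V;SBE-mCherry-PGK-rtTA3, taken before adoptive cell transfer from mice of 60 to 90 postnatal days and of both sexes. By its name, that strain carries an activated Hras under a tetracycline-responsive element, a SMAD-responsive mCherry reporter and the rtTA3 activator under the PGK promoter. The sort kept cells with integrin α6 and without CD45, CD117, CD140a, CD31, CD34, CD44 or the mCherry reporter. For comparison, the same Krt10 limits were applied to cells of the strain TRE-OVA;TRE-HrasG12V:PGK-rtTA3P2AmCherry, which adds an inducible ovalbumin antigen. By its name, mCherry in that strain is joined to rtTA3 under the PGK promoter. There it marks cells with the construct and is not a SMAD-responsive reporter. Those cells were sorted as mCherry+ after adoptive cell transfer, without use of α6, CD34 or CD44, on plates named OT1 (38 Krt10-high and 23 Krt10-absent cells) and OT2 (42 and 35 cells in the same order). The labels name no animal, so each group counts as 1 sample and its cells are not replicates.

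In normal epidermis, basal keratinocytes sit on the basement membrane, hold it through hemidesmosomes and integrins, and express Krt5 and Krt14. On commitment they detach and replace these keratins with the pair Krt1 and Krt10, strengthen their desmosomes, and later make lipids and cross-linked proteins for the barrier. Squamous carcinomas keep parts of this programme, and integrin α6 on the surface is commonly used to mark their basal cells.

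Krt10 itself set the groups, and its partner keratin Krt1 followed it. Krt10 (ENSMUSG00000019761, chr11:99385254-99389364, minus strand of mm10) ranged from 10.04 to 2420.4 TPM (median 75.2) in Krt10-high cells and from 0 to 0.99 TPM (median 0) in Krt10-absent cells, 24 of which were listed at 0. Next to the upper limit, the last cell inside had 10.04 TPM of Krt10 with 28.95 TPM of Krt1, and the nearest cell outside had 9.76 TPM with 34.86 TPM. Next to the lower limit, the last Krt10-absent cell had 0.99 TPM and the nearest cell outside 1.05 TPM, both with Krt1 listed at 0. The upper limit therefore cut through a continuous range rather than a gap.

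Krt1, the type II partner of Krt10 (ENSMUSG00000046834, chr15:101845426-101850794, minus strand), ranged from 8.09 to 5628 TPM (median 654) in Krt10-high cells and from 0 to 1039 TPM (median 0) in Krt10-absent cells. It was detected, at 1 TPM or more, in 40 of 40 Krt10-high cells (exact 95% binomial interval 91.2% to 100%) and in 7 of 26 Krt10-absent cells (11.6% to 47.8%). Such intervals cover counting error only. As for every other gene whose range is given below, the ranges overlapped, since 1 Krt10-absent cell reached 1039 TPM of Krt1, and the cells between the limits lay in the middle with a median of 15.9 TPM. Mean levels were 1193 ± 1391 TPM in Krt10-high cells and 42.5 ± 203.3 TPM in Krt10-absent cells (SD over 40 and 26 cells), a log2 fold of 4.78.

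**Figure D1:**
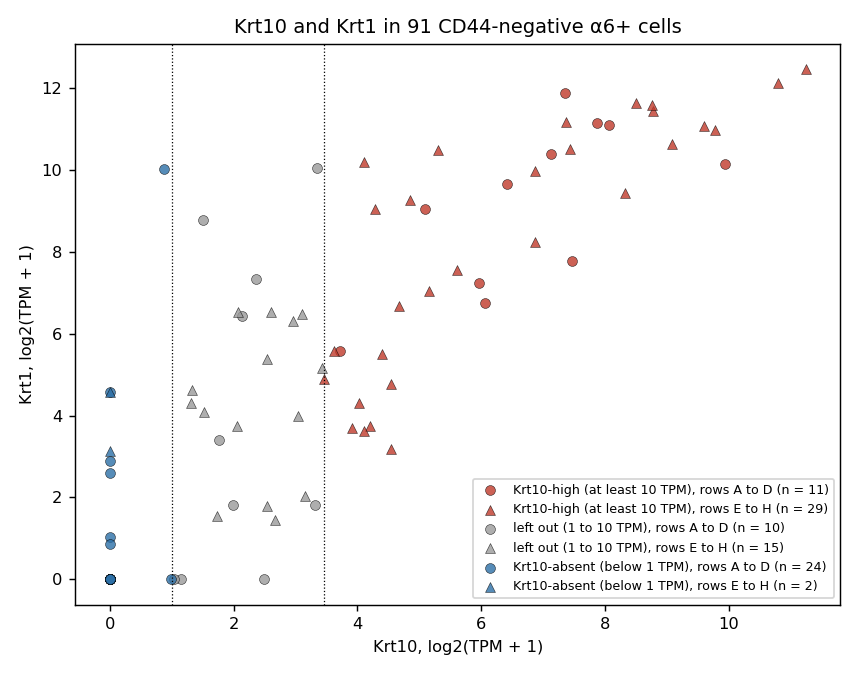
Krt10 (x axis) and Krt1 (y axis) in each of the 91 cells, both as log2(TPM + 1); red marks Krt10-high, grey left-out and blue Krt10-absent cells, circles rows A to D and triangles rows E to H of the plate, and dotted lines the limits of 1 and 10 TPM. All 40 Krt10-high cells had Krt1 of at least 8.09 TPM, whereas most Krt10-absent cells had Krt1 at 0 and 1 reached 1039 TPM.

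The promoters of the gene that defines the groups, of an early differentiation gene that rank-ordered with it in both parts of the plate and of a basal anchoring gene that ran opposite to it are printed for orientation (RefSeq, GRCm38.p6, 250 bases before to 50 bases after the start, read 5′ to 3′ on the gene's strand). Capitals mark TATAAA and the AP-1 motif TGANTCA, searched on both strands.
Krt10 promoter, chr11:99389315-99389614, minus strand: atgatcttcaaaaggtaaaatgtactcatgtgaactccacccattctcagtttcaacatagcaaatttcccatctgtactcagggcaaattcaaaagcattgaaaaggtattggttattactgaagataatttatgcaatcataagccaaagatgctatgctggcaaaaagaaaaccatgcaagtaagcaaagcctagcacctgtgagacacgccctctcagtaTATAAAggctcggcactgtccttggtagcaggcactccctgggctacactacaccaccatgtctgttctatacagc
Krtdap promoter, chr7:30787655-30787954, plus strand: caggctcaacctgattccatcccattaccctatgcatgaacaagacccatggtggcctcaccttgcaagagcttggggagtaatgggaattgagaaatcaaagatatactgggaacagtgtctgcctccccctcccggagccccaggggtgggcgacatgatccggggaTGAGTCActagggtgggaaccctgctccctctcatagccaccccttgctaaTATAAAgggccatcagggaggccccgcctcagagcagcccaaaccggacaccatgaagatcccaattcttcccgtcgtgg
Col17a1 promoter, chr19:47691993-47692292, minus strand: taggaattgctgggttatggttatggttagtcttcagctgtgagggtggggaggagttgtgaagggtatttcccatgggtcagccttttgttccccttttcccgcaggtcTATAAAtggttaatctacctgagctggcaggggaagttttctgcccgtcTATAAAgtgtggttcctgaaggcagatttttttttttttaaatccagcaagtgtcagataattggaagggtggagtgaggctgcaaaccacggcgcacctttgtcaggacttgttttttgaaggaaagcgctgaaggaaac
Krt10 had 1 TATAAA and no AP-1 match, Krtdap had 1 of each, and Col17a1 had 2 TATAAA and no AP-1 match. TATAAA was found in 13.6% and AP-1 in 7.81% of all 32851 promoters of that table. Of the promoters matched to the early differentiation list, 6 of 16 (4 of 13 genes) held AP-1 and 2 of 16 held TATAAA. Of those matched to the late list, 8 of 25 held AP-1 and 10 of 25 TATAAA, and of those matched to the basal list 2 of 16 held each. A further 3 motifs were searched in the same way: CACCC was in 57.5%, CAGGTG in 20.2% and GCCNNNGGC in 16.6% of all promoters. In the early list CACCC was in 9, CAGGTG in 4 and GCCNNNGGC in 0 of 16 promoters. The late list had 20, 9 and 1 of 25, and the basal list 13, 7 and 2 of 16, in that order of motifs. A match is a description of these letters and not of a factor's binding.

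The position of the cells on the plate moved with the groups and touches every comparison below. Xist, made from the inactive X chromosome, was detected in 43 of 45 cells of rows A to D and in 0 of 46 cells of rows E to H, whereas Y-linked transcripts marked 45 of 46 cells of rows E to H and, together with Xist, 1 cell of rows A to D. Krt10-high cells numbered 11 in rows A to D and 29 in rows E to H, and Krt10-absent cells 24 in rows A to D and 2 in rows E to H. Over all rows, Krt10 level and the source of the cells therefore cannot be told apart, and the gene lists and most named genes are also given within rows A to D (11 Krt10-high against 24 Krt10-absent cells) and within rows E to H (29 Krt10-high cells against the 15 left-out cells there, at 1 to 10 TPM of Krt10). These 2 comparisons share no cell. Genes per cell had medians of 6778.5 (2903 to 8142) in Krt10-high cells and 6750.5 (4993 to 8115) in Krt10-absent cells. Rows counted as ribosomal, that of the protein-coding gene Lars2 among them, took a median of 71.2% of the TPM in Krt10-high and 73.3% in Krt10-absent cells. Spike-ins took 0.431% and 0.418%. The highest correlation between 2 libraries of the gate was 0.735, and 0.749 to any other plate, below the 0.954 reached among the other plates, so no pair stood out as a library entered more than once.

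**Figure D2:**
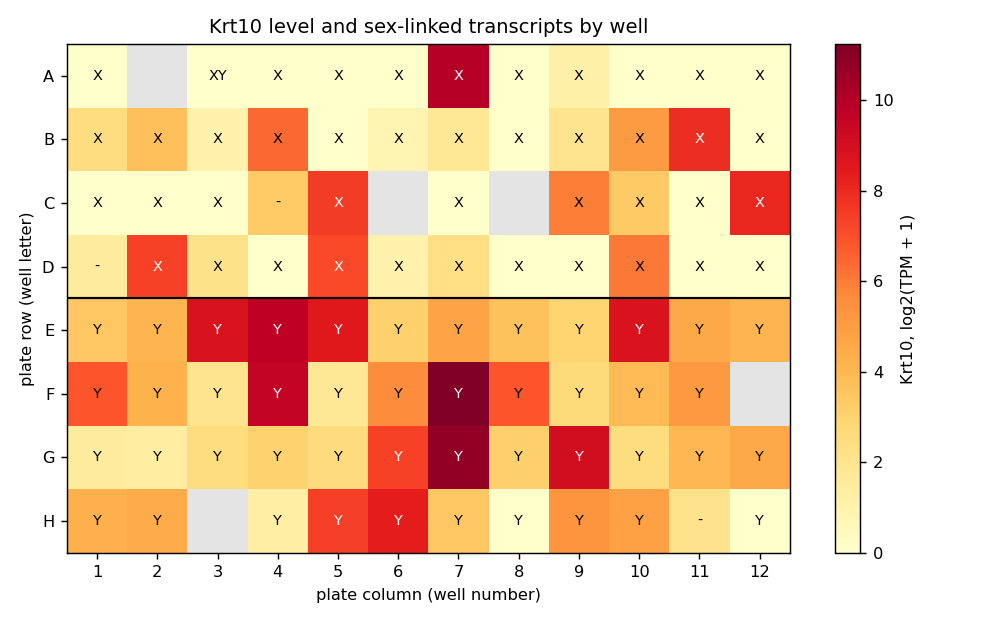
Krt10 level by well (colour, log2(TPM + 1); rows are well letters and columns well numbers, grey wells left out for fewer than 2000 genes), with X for Xist, Y for Y-linked transcripts, XY for both and a dash for neither. The black line separates rows A to D, where 24 of 26 Krt10-absent cells lay, from rows E to H, where 29 of 40 Krt10-high cells lay.

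Over all rows, 11563 genes could be compared, and a gene was called at a mean TPM (plus 1) at least 2-fold different with a difference in mean log2(TPM + 1) of at least 0.5 in the same direction. By this rule 3.73% of the genes were higher and 5.71% lower in Krt10-high cells. Within rows A to D 5.31% of 11608 genes were higher and 12% lower, and within rows E to H 4.02% of 11480 genes were higher and 5.98% lower in Krt10-high than in the left-out cells. The median log2 fold over all tested genes was -0.05, -0.17 and -0.07 in these 3 comparisons. Genes called higher in both sets of rows made up 22.4% of the higher list of rows A to D and 29.9% of that of rows E to H, and genes called lower in both made up 18.3% and 37.2% of the lower lists in the same order. A further 17 of the genes called higher and 32 of those called lower in rows A to D were called in the opposite direction in rows E to H.

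The 12 protein-coding genes with the greatest fold towards Krt10-high cells, among those detected in at least 50% of these cells, were Krt10, Krt1, S100a8, Calm4, Sprr1b, Klk13, Them5, Gsta4, Elovl4, S100a9, Serpinb3b and Fam25c. Calm4, a calmodulin-like protein of skin, ranged from 0 to 2520.0 TPM (median 424.005) in Krt10-high cells and from 0 to 713 TPM (median 0) in Krt10-absent cells. It was detected in 39 of 40 and 10 of 26 cells of these groups. The ranges overlapped through Krt10-high cells with low values and 1 Krt10-absent cell at 713 TPM, the next being at 59.2 TPM. That cell, B6 with 0.83 TPM of Krt10, also had the highest Krt1 (1039 TPM), Krt16 (5204 TPM) and Sprr1b (182.4 TPM) among Krt10-absent cells. Calm4 was compared in each set of rows as well. The log2 fold of Calm4 was 4.11 over all rows, 3.45 in rows A to D and 2.48 in rows E to H. Klk13, a kallikrein-family serine protease, averaged 29.5 ± 52.6 TPM in Krt10-high and 2.19 ± 8.99 TPM in Krt10-absent cells, with log2 folds of 3.26, 4.06 and 2.03 in the same order. Serpinb3b, a serpin protease inhibitor, was detected in 21 of 40 Krt10-high cells and 1 of 26 Krt10-absent cells, with log2 folds of 2.88, 2.44 and 1.66. Calm4, Klk13 and Serpinb3b were thus called in each part of the plate. Them5, a mitochondrial acyl-CoA thioesterase, was different: it ranged from 0 to 252.9 TPM (median 37.02) in Krt10-high and from 0 to 117.5 TPM (median 0) in Krt10-absent cells, with a log2 fold of 2.68 in rows A to D but only 0.38 in rows E to H. Gm6166, which the annotation does not list as protein coding and the rule left out, averaged 430.2 TPM in Krt10-high and 6.16 TPM in Krt10-absent cells, but its log2 fold was 0.08 within rows A to D.

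**Figure D3:**
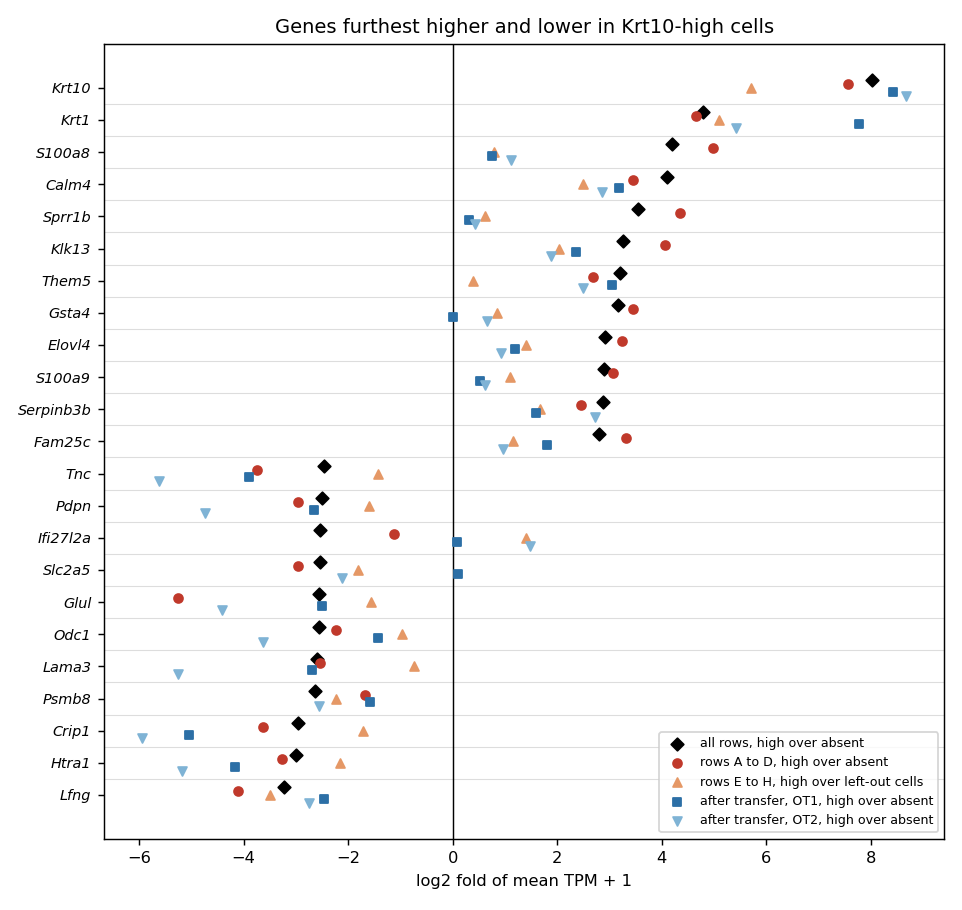
Log2 fold of mean TPM + 1 (x axis) for protein-coding genes furthest higher and furthest lower in Krt10-high cells, in 5 comparisons shown by symbol (all rows, rows A to D, rows E to H, OT1 and OT2). Krt10 set the groups, and the other genes were chosen by the comparison over all rows (black); S100a8 and Sprr1b, at 4.97 and 4.34 in rows A to D, were at 0.79 and 0.61 in rows E to H, while Krt1 was at 4.64 and 5.09.

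Early (spinous) differentiation genes were higher in Krt10-high cells as a group. Of 20 genes listed, 17 were tested, and 12 were higher and 0 lower, with a median log2 fold of 1.34 against -0.05 over all tested genes. In rows A to D 14 of 17 were higher (median 1.79) and in rows E to H 10 of 18 (median 1.09). Krtdap, a secreted keratinocyte differentiation-associated protein (chr7:30787896-30791097, plus strand), ranged from 21.8 to 9519 TPM (median 1448) in Krt10-high cells and from 0 to 1432 TPM (median 185.6) in Krt10-absent cells. Its log2 fold was 2.36 over all rows, 2.76 in rows A to D and 1.23 in rows E to H, and most Krt10-absent cells still held transcripts. Dmkn, a secreted protein of the suprabasal layers, averaged 581 ± 540.8 TPM in Krt10-high and 213.9 ± 172.99 TPM in Krt10-absent cells, at log2 folds of 1.90 in rows A to D and 1.08 in rows E to H. Lypd3, a GPI-anchored surface protein, averaged 141.9 ± 125.8 and 61.5 ± 80.8 TPM in these groups, and its log2 fold was 1.79 in rows A to D and 1.51 in rows E to H. Sbsn, another secreted suprabasal protein, was further apart in rows A to D (3.40) than in rows E to H (0.98). Lgals7, Sfn and Serpinb5, abundant in both groups, were under the 2-fold limit over all rows at log2 folds of 0.70, 0.84 and 0.52, though Sfn was called higher in rows A to D (1.12).

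Among cell-cell adhesion genes, a few suprabasal desmosomal cadherins were higher and most other genes were under 2-fold apart. Of 14 tested desmosome genes 4 were higher and 1 lower (median 0.81), against 8 and 1 in rows A to D (1.2) and 4 and 0 in rows E to H (0.70). Dsg1b, a desmoglein of the upper epidermis, ranged from 0 to 112.3 TPM (median 28.1) in Krt10-high and from 0 to 58.4 TPM (median 0) in Krt10-absent cells. The similar Dsg1a averaged 18.9 ± 22.3 and 5.96 ± 12.2 TPM in these groups, and reads of the 2 near-identical genes may have been split between them. Dsc1, the desmocollin of differentiated layers, was detected in 17 of 40 Krt10-high and 4 of 26 Krt10-absent cells. All 3 were called in both parts of the plate: the log2 folds in rows A to D and rows E to H were 2.56 and 1.57 for Dsg1b, 2.22 and 1.98 for Dsg1a, and 2.13 and 2.66 for Dsc1. Dsc2 was higher in rows A to D (2.54) but at 0.26 in rows E to H. The plaque protein Jup and the p53-family target Perp were detected in every cell of both groups. Jup averaged 765 ± 381.4 TPM in Krt10-high and 435.6 ± 311.98 TPM in Krt10-absent cells, and Perp 638 ± 331.7 and 337.3 ± 161.7 TPM, each under 2-fold apart over all rows but called higher within rows A to D. Dsg2, a desmoglein of simple epithelia and basal cells, was the lower one, detected in 8 of 40 Krt10-high and 14 of 26 Krt10-absent cells, and was called in rows A to D (-1.20) but not in rows E to H (-0.78). The gap junction gene Gjb2 averaged 263.5 ± 404.9 TPM in Krt10-high and 106.02 ± 203.2 TPM in Krt10-absent cells, at log2 folds of 2.19 in rows A to D and 0.83 in rows E to H, and was the 1 gene called higher of 6 tested connexins, beside 1 called lower. Of 10 tested tight or adherens junction genes 0 were called over all rows and 1 was higher in rows A to D.

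Many enzymes and carriers of the epidermal lipid barrier were higher as well. Of 19 tested genes 10 were higher and 0 lower (median 1.03), with 11 of 19 higher in rows A to D and 7 of 20 in rows E to H. Fabp5, the epidermal fatty acid-binding protein, ranged from 38.9 to 17396 TPM (median 4282) in Krt10-high cells and from 0 to 5253 TPM (median 322.1) in Krt10-absent cells. The median of Krt10-high cells thus approached the highest Krt10-absent cell, and the log2 fold was 2.24 in rows A to D and 1.97 in rows E to H. Elovl4, which elongates very long fatty acids for ceramides, was detected in 29 of 40 Krt10-high and 5 of 26 Krt10-absent cells. Acer1, an alkaline ceramidase, was detected in 17 of 40 and 1 of 26 cells, and Abca12, the lamellar body lipid transporter, in 29 of 40 and 8 of 26 cells of these groups. Elovl4, Acer1 and Abca12 had log2 folds of 3.23, 2.61 and 2.04 in rows A to D, and of 1.41, 1.62 and 2.37 in rows E to H. The serine palmitoyltransferase subunits Sptlc1 and Sptlc2, which start sphingolipid synthesis, were at -0.02 and -0.32 over all rows.

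Late differentiation genes were detected in part. Of 25 listed genes of the granular layer and cornified envelope only 10 were detected widely enough to be tested, and 7 were higher and 0 lower (median 2.06). In rows A to D 7 of 10 were higher and 1 lower (2.73). In rows E to H 4 of 12 were higher and 0 lower (1.09). The filter passes a gene through the group in which it is high, so these counts and medians do not stand for the whole list. The terminal genes Flg2, Hrnr, Rptn and Sprr3 were listed at 0 in all 66 cells, Lor and Flg at mean levels of 0.0232 and 1.06 TPM in Krt10-high cells and at 0 in Krt10-absent cells. Sprr1b, a cross-linked envelope precursor, ranged from 0 to 1941 TPM (median 37.6) in Krt10-high cells and from 0 to 182.4 TPM (median 0) in Krt10-absent cells. Its mean of 212.4 TPM in Krt10-high cells lay far above their median, since a few cells carried most of it. The log2 fold was 4.34 in rows A to D and 0.61 in rows E to H, and that of the related Sprr1a was 4.99 and 0.03. By contrast, the transglutaminases Tgm3 and Tgm1 and a caspase were called higher in both parts of the plate. Tgm3, an envelope cross-linking enzyme, had log2 folds of 3.58 in rows A to D and 2.91 in rows E to H, and Tgm1 of 3.07 and 1.38. Casp14, the caspase of cornification, was detected in 24 of 40 Krt10-high and 3 of 26 Krt10-absent cells, with log2 folds of 2.39 and 1.24 in those rows.

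Stress keratins and alarmins, which keratinocytes make in wounds and inflamed or hyperplastic skin, were higher over all rows in 7 of 10 tested genes (median 1.42), in 7 of 10 in rows A to D (2.13) and in 3 of 10 in rows E to H (0.52). Krt16, a type I stress keratin, ranged from 18.1 to 8669.9 TPM (median 831) in Krt10-high cells and from 0 to 5204 TPM (median 25.8) in Krt10-absent cells. Among Krt10-high cells it averaged 3824 ± 2832 TPM in rows A to D and 1057 ± 1452 TPM in rows E to H, so its level also differed between the rows. Against the other cells of the same rows, its log2 fold was 2.93 in rows A to D and 1.55 in rows E to H. Krt6b averaged 916 ± 1346 TPM in Krt10-high and 299.8 ± 902 TPM in Krt10-absent cells, the similar Krt6a 2263 ± 2056 and 1293 ± 1559.7 TPM, and Krt17 448.1 ± 740.4 and 401.3 ± 459.02 TPM. Of these 3, Krt6b alone was called over all rows, and Krt6a was also higher in rows A to D (1.52). S100a8, a subunit of the antimicrobial calprotectin, ranged from 0 to 3906 TPM (median 30.7) in Krt10-high cells and from 0 to 165.2 TPM (median 0) in Krt10-absent cells. Its log2 fold was 4.97 in rows A to D and 0.79 in rows E to H. Its partner S100a9 was at 3.07 and 1.09.

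Among regulators of differentiation, 5 of 26 tested transcription factors were higher and 0 lower (median 0.29), against 7 higher and 1 lower in rows A to D and 7 and 0 in rows E to H. Zfp750, a driver of late differentiation, ranged from 0 to 126.98 TPM (median 32.3) in Krt10-high cells and from 0 to 64.03 TPM (median 0) in Krt10-absent cells. Ovol1, a repressor of the progenitor state, was detected in 34 of 40 Krt10-high and 10 of 26 Krt10-absent cells, and the epithelial ETS factor Elf3 in 23 of 40 and 6 of 26. Each of these 3 was called in both parts of the plate, with log2 folds of 1.44, 2.02 and 1.62 in rows A to D and 1.86, 2.28 and 1.68 in rows E to H. Id1 and Klf5, also called over all rows, did not hold in both parts. Id1 was at 1.83 in rows A to D and -0.81 in rows E to H, and Klf5 at 0.85 and 0.30. Klf4, a factor of barrier formation, was not called over all rows (0.60) or in rows E to H (0.64) but was higher in rows A to D (1.39). Grhl3, another barrier factor, was not called over all rows (0.83) or in rows A to D (0.98) but was higher in rows E to H (1.82). Trp63, the master factor of stratified epithelium, was detected in all cells of both groups at 68.8 ± 39.4 TPM in Krt10-high and 84.1 ± 41.7 TPM in Krt10-absent cells.

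Notch signalling, which promotes the step from basal to spinous cells, showed a higher receptor gene and feedback gene beside lower ligand genes and a lower modifier. Notch3 averaged 12.3 ± 9.63 TPM in Krt10-high and 4.25 ± 7.42 TPM in Krt10-absent cells, and its log2 fold was 1.29 in rows A to D and 2.45 in rows E to H. The feedback inhibitor Nrarp averaged 15.1 ± 17.5 and 4.04 ± 8.62 TPM, at log2 folds of 1.04 and 0.62 in those rows. Notch1 (-0.12) and the target Hes1 (0.69) were under 2-fold apart over all rows. Of the ligands, Jag2 was detected in 12 of 40 Krt10-high and 20 of 26 Krt10-absent cells and Dll1 in 11 of 40 and 17 of 26. Jag2 had log2 folds of -2.97 in rows A to D and -1.46 in rows E to H, and Dll1 of -3.27 and -0.85. Lfng, a Fringe glycosyltransferase that alters which ligands Notch responds to, had a log2 fold of -3.23 over all rows, -4.11 in rows A to D and -3.50 in rows E to H. It was detected in 2 of 40 Krt10-high cells (5%, interval 0.611% to 16.9%) and 14 of 26 Krt10-absent cells (53.8%, interval 33.4% to 73.4%). In the pathway list as a whole 2 of 16 tested genes were higher and 3 lower, against 2 and 4 in rows A to D and 1 and 3 in rows E to H.

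The basal programme was lower in its anchoring genes and not in its main keratin. Of 19 tested basal genes 0 were higher and 11 lower (median -1.18), with 12 lower in rows A to D (-1.88) and 7 in rows E to H (-0.74). Krt14 ranged from 75.5 to 13652 TPM (median 7141) in Krt10-high cells and from 2166 to 12309 TPM (median 7678) in Krt10-absent cells. It averaged 7269.6 ± 2651 and 6915 ± 2875 TPM, a log2 fold of 0.07, so the groups overlapped almost wholly. Krt5, its partner, averaged 1330.2 ± 892 TPM in Krt10-high and 1991 ± 723 TPM in Krt10-absent cells (-0.58 over all rows, -0.56 in rows A to D and -0.52 in rows E to H). The third basal keratin, Krt15, was detected in 12 of 40 Krt10-high and 17 of 26 Krt10-absent cells, and its log2 fold was -1.50 in rows A to D and -1.57 in rows E to H.

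Hemidesmosome genes and laminin-binding integrins were lower in Krt10-high cells. Col17a1, the transmembrane collagen of the hemidesmosome (chr19:47646344-47692094, minus strand), ranged from 0 to 313.1 TPM (median 15.8) in Krt10-high cells and from 5.52 to 441.9 TPM (median 197.1) in Krt10-absent cells. All 26 Krt10-absent cells held it, whereas 11 of 40 Krt10-high cells were below 1 TPM. Its log2 fold was -1.68 over all rows, -2.17 in rows A to D and -1.08 in rows E to H. Itgb4, the integrin chain that pairs with α6 there, ranged from 0 to 252.2 TPM (median 12.2) in Krt10-high cells and from 0 to 394.7 TPM (median 99.7) in Krt10-absent cells, at -2.72 in rows A to D and -1.47 in rows E to H. Itga6, the chain used for the sort, averaged 28.9 ± 33.3 TPM in Krt10-high and 66.5 ± 57.7 TPM in Krt10-absent cells, at log2 folds of -1.88 in rows A to D and -0.74 in rows E to H. The integrin chains Itga3 and Itgb1, which bind laminin outside the hemidesmosome, had log2 folds of -3.46 and -2.26 in rows A to D and of -1.66 and -1.60 in rows E to H. The laminin chains Lama3 and Lamb3, which basal cells deposit, were lower over all rows and in rows A to D, but under 2-fold apart in rows E to H. Lama3 was at -2.54 in rows A to D and -0.74 in rows E to H, and Lamb3 at -3.04 and -0.94.

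**Figure D4:**
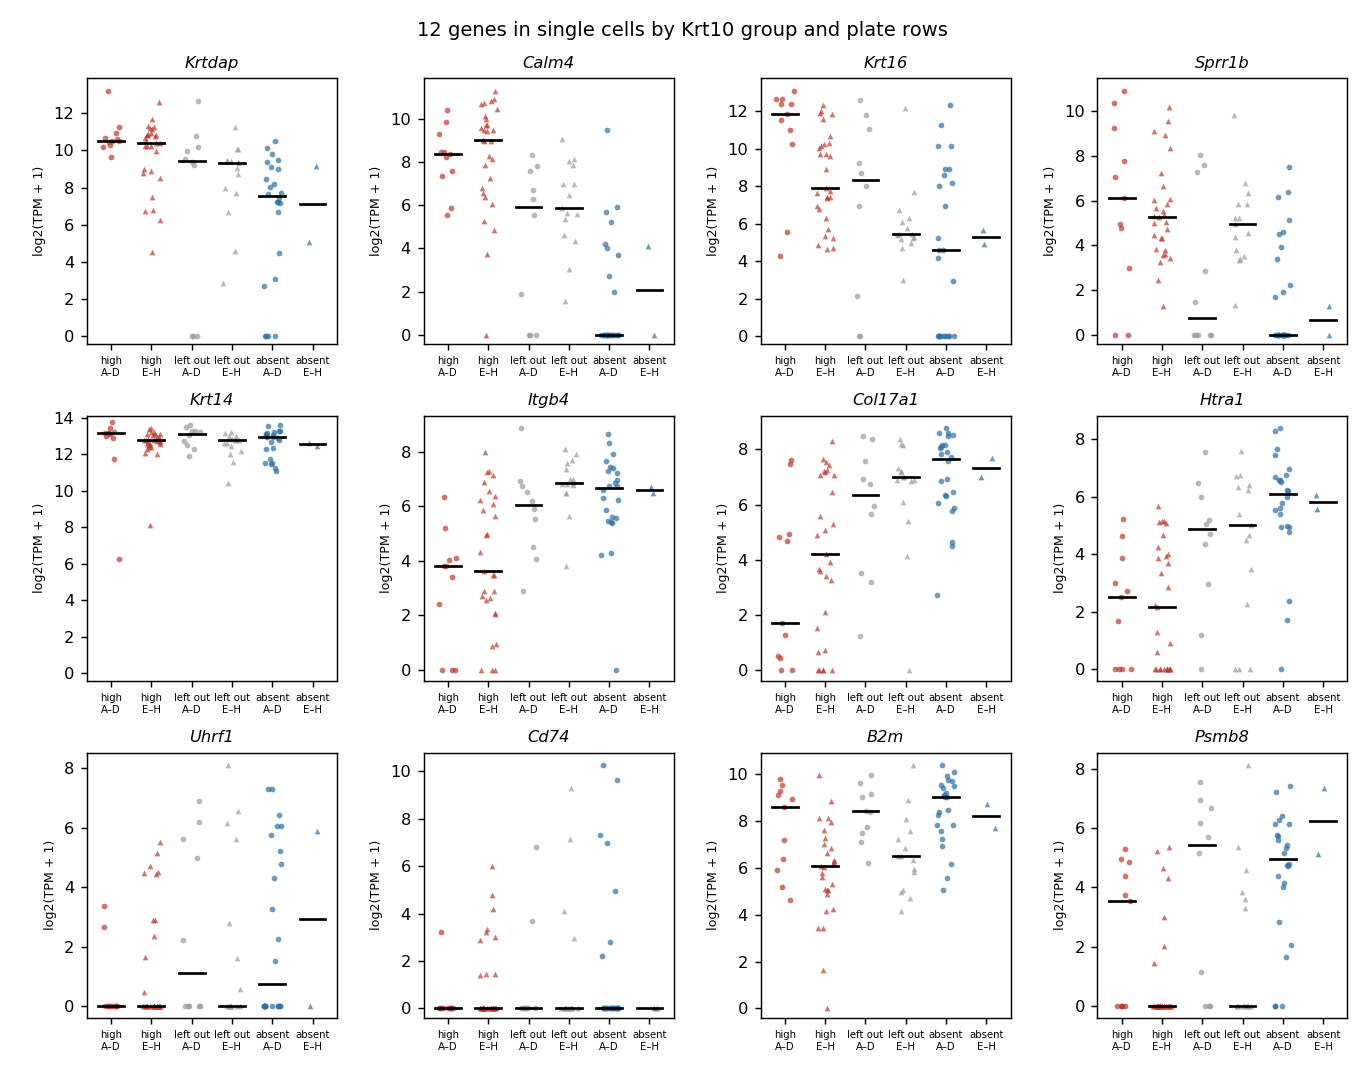
Level of 12 genes in single cells (log2(TPM + 1), y axis) by Krt10 group and plate rows (x axis), with each point a cell and the bar a median. Krt14 was level across groups (means of 7269.6 TPM in Krt10-high and 6915 TPM in Krt10-absent cells), Col17a1 and Itgb4 were lower in Krt10-high cells of both parts of the plate, and B2m, lower over all rows, was at -0.44 (log2 fold) within rows A to D.

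Among the 12 protein-coding genes furthest lower, of those detected in at least 50% of Krt10-absent cells, were Lfng, Htra1, Crip1, Psmb8, Lama3, Odc1, Glul, Slc2a5, Ifi27l2a, Pdpn and Tnc. Htra1, a secreted serine protease, ranged from 0 to 50.5 TPM (median 3.58) in Krt10-high cells and from 0 to 336.1 TPM (median 63.4) in Krt10-absent cells, at log2 folds of -3.26 in rows A to D and -2.17 in rows E to H. Crip1, a small LIM-domain protein, was detected in 5 of 40 Krt10-high and 14 of 26 Krt10-absent cells. Pdpn, the membrane mucin podoplanin, was detected in 8 of 40 and 16 of 26, and Tnc, the matrix protein tenascin C, in 9 of 40 and 16 of 26. These 4 were called lower in both parts of the plate, at log2 folds of -2.17 to -1.44 in rows E to H. Glul, glutamine synthetase, was at -5.26 in rows A to D and -1.56 in rows E to H. Odc1, the rate-limiting enzyme of polyamine synthesis, reached 487.5 TPM in 1 Krt10-absent cell and was not called within either set of rows, while the medians were 0 TPM in Krt10-high and 2.01 TPM in Krt10-absent cells. Of the TGF-beta and SMAD response genes 0 of 19 tested were higher and 3 lower (median -0.50), with 1 higher and 5 lower in rows A to D and 0 and 3 in rows E to H. Over all tested genes 5.71%, 12% and 5.98% were lower in these 3 comparisons, and 3.73%, 5.31% and 4.02% higher.

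Part of the S phase genes were lower in Krt10-high cells and most G2 and M genes were under 2-fold apart. Of the S phase list 9 of 19 tested genes were lower and 0 higher (median -0.86), with 11 lower in rows A to D (-1.30) and 4 in rows E to H (-0.58). Uhrf1, which maintains DNA methylation during replication, was detected in 12 of 40 Krt10-high and 13 of 26 Krt10-absent cells, at log2 folds of -3.65 in rows A to D and -2.19 in rows E to H. The replicative helicase genes Mcm2, Mcm3, Mcm4, Mcm5, Mcm6 and Mcm7 had log2 folds of -0.80, -1.14, -1.12, -1.17, -1.22 and -1.06 over all rows, but only Mcm6 (-1.07) was called in rows A to D and only Mcm7 (-1.12) in rows E to H. In the G2 and M list 1 of 22 tested genes was lower and 0 higher (median -0.30), with 0 lower in rows A to D (-0.16) and 3 in rows E to H (-0.62). Mki67, the common proliferation marker, was detected in 16 of 40 Krt10-high cells (40%, interval 24.9% to 56.7%) and 13 of 26 Krt10-absent cells (50%, interval 29.9% to 70.1%). The difference between these shares was not tested. Without cells that held Mki67 or Top2a, which left 16 Krt10-high and 6 Krt10-absent cells, the S phase median was 0.081. The inhibitor Cdkn1a averaged 97.98 ± 103.8 TPM in Krt10-high and 53.9 ± 42.8 TPM in Krt10-absent cells, under 2-fold apart over all rows but called higher within each set of rows.

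Interferon genes moved with the rows of the plate, and MHC class I genes did so in part. Of the interferon list 7 of 18 tested genes were lower over all rows (median -0.85), but within rows A to D 1 was higher and 2 lower (0.41), and within rows E to H 1 was higher and 1 lower of 12 (-0.34). Among Krt10-high cells alone, those of rows A to D against those of rows E to H, 15 of 17 interferon genes were higher and 0 lower (median 1.93), where 4.54% of all 11670 tested genes were higher and 8.34% lower. MHC class I genes differed between the same Krt10-high cells too, with 8 of 15 higher and 1 lower in those of rows A to D (median 1.27). Between Krt10-high and Krt10-absent cells 6 of 16 class I genes were lower and 0 higher over all rows (-0.85), and 3 were lower in rows A to D (-0.53). Within rows E to H 4 of 14 were lower in Krt10-high than in the left-out cells (-0.69). B2m, the shared light chain of MHC class I, was called lower over all rows (-1.32) but was at -0.44 in rows A to D and -0.66 in rows E to H. Ifi27l2a, an interferon-inducible gene, had opposite signs in rows A to D (-1.13) and in rows E to H (1.40). Psmb8, an immunoproteasome subunit, was lower in both, at -1.69 and -2.24, and was detected in 13 of 40 Krt10-high and 23 of 26 Krt10-absent cells. Gbp2, an interferon-induced GTPase, was at -1.33 and -4.49, though only 7 of 26 Krt10-absent cells held it.

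Of 6 tested MHC class II genes 0 were higher and 4 lower over all rows (median -2.76). Within rows A to D 4 of 5 were lower (-3.03), and within rows E to H 1 of 6 (-1.79). Cd74, the class II invariant chain, ranged from 0 to 63.9 TPM (median 0) in Krt10-high cells and from 0 to 1236 TPM (median 0) in Krt10-absent cells. Over all rows it was detected in 27.5% of Krt10-high and 26.9% of Krt10-absent cells. Most positive Krt10-high cells lay in rows E to H, and all positive Krt10-absent cells in rows A to D. These shares therefore cannot be told apart from the rows. The highest Krt10-absent cells were A4 (1236 TPM) and A3 (790 TPM), the latter with both Xist and Y-linked transcripts. H2-Ab1, a class II beta chain, was detected in 8 of 40 Krt10-high and 11 of 26 Krt10-absent cells, with means of 4.13 ± 13.6 and 41.2 ± 112.6 TPM, and was called lower in rows A to D (-3.46) and in rows E to H (-2.25). Ptprc, the pan-leukocyte gene behind CD45, was listed at 0 in all 66 cells. Glutathione and NRF2-target genes were higher over all rows in 7 of 18 (median 0.49) but had medians of -0.03 in rows A to D and 0.00 in rows E to H. Gclm, the modifier subunit of glutathione synthesis, averaged 9.81 ± 10.8 TPM in Krt10-high and 13.01 ± 18.5 TPM in Krt10-absent cells of rows A to D, and 47.04 ± 40.8 TPM in Krt10-high and 67.6 ± 45.6 TPM in the left-out cells of rows E to H. Gsta4, a glutathione transferase of the named genes, was at 3.45 and 0.84 in the same rows.

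**Figure D5:**
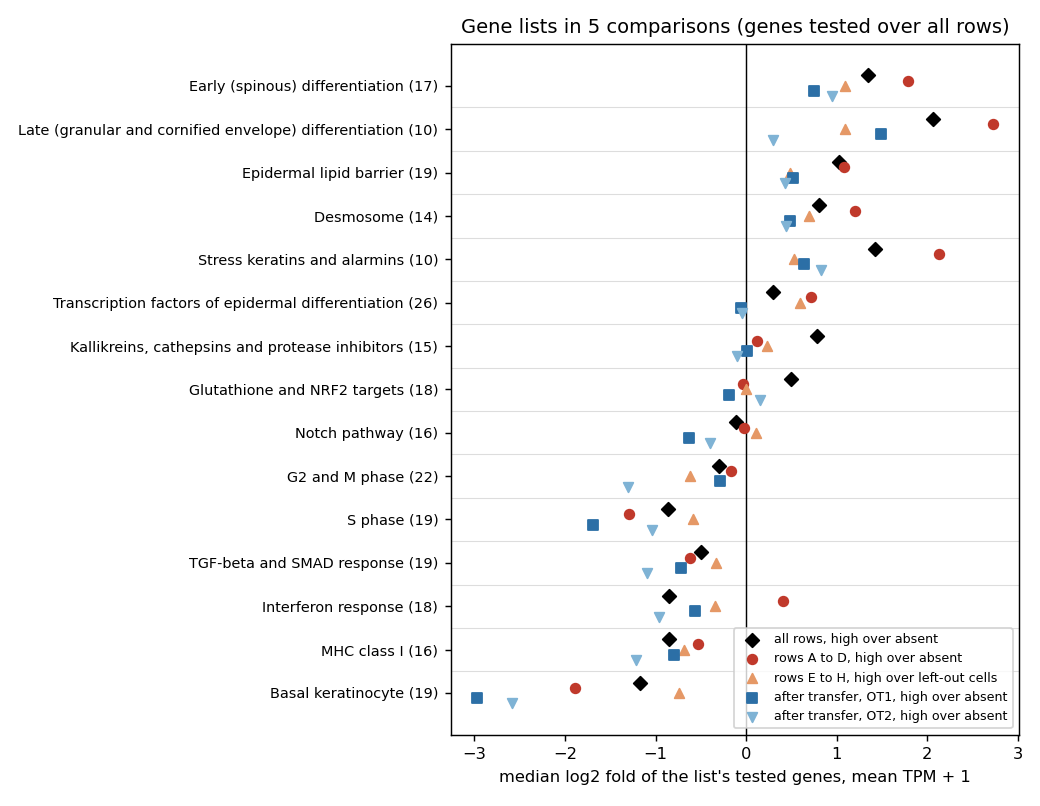
Median log2 fold (x axis) of the tested genes of 15 lists (y axis, number tested over all rows in brackets) in the same 5 comparisons. The early list lay between 0.75 and 1.79 and the basal list between -2.97 and -0.74 in all 5, whereas the interferon list was at 0.41 in rows A to D and -0.85 over all rows.

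The label as keratinocytes was checked against marker lists. The 8 general keratinocyte markers summed to 2645 to 18691 TPM (median 10915) in Krt10-high cells and 4133 to 16749.9 TPM (median 11372) in Krt10-absent cells. Kit and Ptprc were listed at 0 in all 66 cells, and Pdgfra and Pecam1 had means of 0.0135 and 0.197 TPM in Krt10-high cells and 0.0296 and 1.29 TPM in Krt10-absent cells. Of 12 immune markers 5, of 10 fibroblast markers 3, of 6 endothelial markers 3 and of 10 melanocyte or Merkel cell markers 6 were at 0 in every cell. The immune list summed to 0 to 245.9 TPM (median 30.5) in Krt10-high and 0 to 96.6 TPM (median 29.8) in Krt10-absent cells, and the fibroblast list to 0 to 88.95 and 0 to 76.9 TPM in these groups. Sums were highest for sebaceous gland markers, with medians of 88.5 and 100.4 TPM and maxima of 532.4 and 687.4 TPM in these groups. Pericyte or muscle markers reached 138.9 and 327.5 TPM, and of 3 tested 1 was higher and 1 lower. The higher one was Notch3, which is also counted in the early differentiation and Notch lists above. Whether some cells were of these types was not tested. Cd44 transcripts were detected in every cell although the sort was for CD44-negative cells, at 157.7 ± 91.02 TPM in Krt10-high and 121.6 ± 83.7 TPM in Krt10-absent cells. Of 5 simple epithelial keratins, Krt8, Krt19 and Krt20 were listed at 0 in all 66 cells. The other 2, Krt7 and Krt18, were detected in at least 1 cell. The list summed to at most 38.1 TPM in Krt10-high and 4.15 TPM in Krt10-absent cells, with a median of 0 in both.

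The same limits were then applied to cells that the rule did not use. After transfer, 3.22% of 10815 tested genes were higher and 16.5% lower in Krt10-high than in Krt10-absent cells of OT1, and 2.61% of 11821 were higher and 15% lower on OT2. Of the further plates after transfer, OT_B, whose libraries may repeat the same cells, gave 3.54% higher and 10.3% lower. Median log2 folds over all genes were -0.35 and -0.36, and Krt10-high cells had fewer genes detected than Krt10-absent cells there (medians of 5947 against 6481 on OT1 and 6746 against 7400 on OT2). No cell of either comparison was marked by Xist alone, so that mark did not divide these groups. Of the genes called within rows A to D, 17.4% of the higher ones were also called higher on OT1, where they made up 30.7% of the list, and 17.5% on OT2, where they made up 35.1%. Of the lower ones, 34.7% were also called lower on OT1 (27.1% of the OT1 list) and 39.97% on OT2 (31.3% of the OT2 list). Opposite calls occurred too: 39 of the higher genes of rows A to D were called lower on OT1 and 26 on OT2. Of the lower genes, 13 were called higher on OT1 and 16 on OT2. Rows A to D, rows E to H, OT1 and OT2 are 4 comparisons that share no cell. In all 4 of them, 43 genes were called higher. These were 6.98% of the higher list of rows A to D and 9.31% of that of rows E to H. For genes called lower in all 4, the shares were 8.99% and 18.2% of the lower lists in the same order. Krt10 is among the 43 by the choice of the groups, since each comparison was cut on it.

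Those 43 genes included Krt10 and Krt1, Calm4, Klk13, Klk11, Serpinb3b, the desmosomal cadherins Dsg1a, Dsg1b and Dsc1, the lipid genes Fabp5, Acer1, Elovl7 and Dgat2, the keratins Krt16 and Krt6b, Casp14 and Elf3. The lower genes called in all 4 included Col17a1, Itgb4, Itga3 and Itgb1, the anchoring fibril collagen Col7a1, Jag2, Wnt10a, Pdpn, Tnc, Htra1, Uhrf1, Ccnd2 and the immune ligands Cd276 and Lgals9. Krt1 averaged 1244 ± 1735 TPM in Krt10-high and 4.73 ± 9.27 TPM in Krt10-absent cells of OT1, and 1192 ± 1669 and 26.9 ± 150.4 TPM on OT2. Col17a1 averaged 2.64 ± 8.35 TPM in Krt10-high and 136.5 ± 100.5 TPM in Krt10-absent cells of OT1, and 1.93 ± 6.46 and 131.6 ± 107.6 TPM on OT2. Its log2 folds there, -5.24 and -5.50, were further from 0 than the -1.68 of the α6+ cells, and the basal list had medians of -2.97 and -2.58. The gates, strains and therapy differ between these cells, the difference was not tested, and these factors cannot be told apart. Krt5, under 2-fold apart among α6+ cells, was lower after transfer at -2.29 on OT1 and -2.51 on OT2, while Krt14 stayed at -0.15 and -0.32. Late genes split: Casp14 was at 4.20 and 2.49, but Sprr1b at 0.32 and 0.42 and Tgm3 at -0.56 and 0.51. MHC class I and interferon lists had medians of -0.79 and -0.56 on OT1 and -1.21 and -0.96 on OT2.

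Genes were also ordered by how closely they followed Krt10 without the limits, a description that reuses the Krt10 values of the groups. Spearman's rank correlation with Krt10 was computed for all 91 cells, apart for the 45 cells of rows A to D and the 46 of rows E to H, and genes were ranked by the lesser of the 2 values, a measure chosen after the levels had been seen. Cells of a row set share a plate and mostly a sex-linked mark, and their animals are not named, so these values describe the plate. The closest genes were Krt1 (0.80 and 0.80), Calm4 (0.75 and 0.74), Perp (0.66 and 0.68), Krtdap (0.64 and 0.64) and Ephx3, an epoxide hydrolase (0.64 and 0.64). Dsg1a, Dsg1b, the plaque protein Pkp1 and Jup followed, from 0.57 to 0.66. Perp and Jup, under 2-fold apart between the groups over all rows, thus followed Krt10 by rank in both sets of rows. In the other direction stood Agrn (-0.67 and -0.62) and Hspg2 (-0.55 and -0.68), basement membrane proteoglycans, the prostaglandin transporter Slco2a1 (-0.61 and -0.64), Itgb4 (-0.59 and -0.71) and the caveolae gene Cav1 (-0.57 and -0.69).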

How the data were processed

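Libraries were made from single cells sorted by flow cytometry and sequenced by the Smart-seq2 protocol, per the labels. The values used are TPM as deposited, 1 column a cell. The submitters' processing notes name Bowtie2 2.2.9, RSEM 1.2.30 and the build mm10. TPM keeps no read depth, so the depth behind each value is unknown. Of 46517 gene rows, 46005 matched GENCODE M21 by ID and 512 did not. The 92 spike-in rows and 7 rows counted as ribosomal were left out of comparisons. These 7 include the protein-coding gene Lars2, whose row was taken to behave with them.

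Cells with fewer than 2000 genes at 1 TPM were left out, and doublets were not called. The log2 fold is that of mean TPM + 1 in Krt10-high over Krt10-absent cells, so it understates low genes. Genes were compared where at least 10% of the cells of both groups together had 1 TPM. No p-values were computed, since each group is 1 sample with no animal named and was chosen on a measured transcript.

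The members and gene lists were chosen with earlier results of these data known. Genes were named if they were among the 12 furthest higher or lower (called, protein coding, detected in at least 50% of the cells of the higher group), among the 6 most abundant of a list, or called in a list. Other genes, and those of the rank correlation and of the calls shared across plates, were chosen after their values were seen. Some genes that the rule names are not reported here. Scripts used Python 3.11.15, pandas 2.3.3, NumPy 2.4.6, SciPy 1.17.1 and matplotlib 3.10.9 and were tested on simulated data. Alternative settings covered the pseudocount, the filters, the Krt10 limits, rescaling, the sex-linked marks, cycling cells and the plate rows.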

Additional observations from a re-analysis of the deposited data

How the results depend on the processing

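Calls are given as percent of genes tested. Of 18 alternative settings, 15 kept the number of genes higher in Krt10-high cells within 1.5 times of the main one, and 9 kept that of genes lower. A pseudocount of 5 TPM gave 1.24% higher and 1.39% lower genes. Cells with Y-linked transcripts and no Xist, of which only 2 were Krt10-absent, gave 29.5% and 10.2%, with list medians of 2.65 (early), -0.27 (basal), -0.10 (S phase) and -1.39 (G2 and M). Cells without Mki67 and Top2a gave 13.95% and 11.8%, with medians of -2.16 (basal) and 0.081 (S phase, the opposite sign). Lower genes came to 9.55% with Krt10-high cells from 50 TPM, 2.70% with no cell left out, 11.6% in cells with Xist and no Y-linked transcripts, 3.71% by the difference of mean log2(TPM + 1) and 11.98% in rows A to D. The basal median was -2.24 from 50 TPM, -0.29 with no cell left out, -1.93 in Xist cells and -1.88 in rows A to D. The late median was 1.04 with a pseudocount of 5 TPM and likewise 1.04 by mean log2, 1.14 with no filter, 2.69 in Xist cells, 2.73 in rows A to D and 1.09 in rows E to H. Rescaling without spike-in and ribosomal rows gave 9.47% lower genes. Plate OT_B in place of OT1 gave 10.3% lower genes, against 16.5%. The causes were not tested. The settings for rows A to D, for rows E to H and without the cell that held both marks were chosen after seeing the data. No paired analysis was possible because the labels name no animal and each group is 1 sample. What limits every value is 1 plate, with unknown depth.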
